A study of Mus musculus with 4 samples.

Results

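Transcripts of 5 genes of the vascular endothelial growth factor (VEGF), angiopoietin and hypoxia-inducible factor 2 axis were compared between mouse aortic endothelial cells that overexpress human catalase (hcatTg, 2 arrays) and wild type cells (2 arrays), both of the C57BL/6J strain. The genes are Angpt2, Vegfa, Vegfc, Kdr and Epas1. They are the 5 probe sets that carry these symbols among the 398 named in the authors' deposited table. The values cover 35557 transcript clusters of the Affymetrix Mouse Gene 1.0 ST array. This number includes control rows, and the shares of clusters and percentiles below include them too. A transcript cluster is a group of probes summarised at the level of a gene, so its value is not that of a single transcript. All cells had reached 80% confluence, had been kept without serum for 12 h and had then received 10% fetal bovine serum for 12 h. Catalase breaks down hydrogen peroxide. No source used here gives the promoter of the transgene, the level of catalase or the animals behind the RNA samples, and the replicate spread may therefore be technical. The authors' column headers name the first array of each genotype and give folds for a 1st time and a 2nd time. The 2nd time folds match the differences between the second arrays. The arrays are therefore called the first and second array pairs. What the times refer to is not stated. Wild type array 1 lay at least 2 log2 units below the other 3 arrays in 115 clusters where those 3 agreed within 1 unit. Of these clusters, 114 were among the 6636 whose identifier numbers lie below any in the authors' table. None of the 5 genes could be counted here, because their second arrays differed by more than 1 unit between the genotypes. The count therefore does not show whether wild type array 1 was sound for them.

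VEGF-A is the main growth factor that drives endothelial cells to divide and sprout, and it signals in them chiefly through VEGF receptor 2, the product of Kdr. VEGF-C is best known for guiding lymphatic vessels through VEGF receptor 3, and its processed form also binds VEGF receptor 2. Angiopoietin-2, from Angpt2, is made by endothelial cells and binds the Tie2 receptor, where in many settings it counters angiopoietin-1 and loosens vessels. Epas1 encodes HIF-2 alpha, the oxygen-regulated subunit of hypoxia-inducible factor 2, which is abundant in endothelium. Vegfa is a known target of hypoxia-inducible factors, which bind a short DNA core.

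Promoter sequence is shown for the members whose start site was in the RefSeq promoter table (build GRCm38.p6, mouse), because the letters of that core and of the GC box, which Sp1-type factors bind, can be looked for there. The core was searched as ACGTG and, with its first letter changed, as GCGTG. The GC box was searched as GGGCGG. Windows were found for 3 of the 5 members, Vegfa, Vegfc and Kdr, and Angpt2 and Epas1 had no entry. Each sequence runs 5′ to 3′ on the gene's strand, and capitals mark a match to the core or to the GC box on either strand. The 250 bases before the Vegfa start lie at chr17:46032378-46032627 (minus strand), and the 250 bases before the Vegfc start at chr8:54077282-54077531 (plus strand). For Kdr, both matches to the core are shown within 30 bases each, at chr5:75978570-75978599 and chr5:75978528-75978557 (minus strand).
Vegfa: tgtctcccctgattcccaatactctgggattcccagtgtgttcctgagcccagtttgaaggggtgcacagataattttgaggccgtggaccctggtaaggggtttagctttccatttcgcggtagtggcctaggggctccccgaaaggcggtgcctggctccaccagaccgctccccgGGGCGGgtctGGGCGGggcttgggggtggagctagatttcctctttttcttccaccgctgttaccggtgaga
Vegfc: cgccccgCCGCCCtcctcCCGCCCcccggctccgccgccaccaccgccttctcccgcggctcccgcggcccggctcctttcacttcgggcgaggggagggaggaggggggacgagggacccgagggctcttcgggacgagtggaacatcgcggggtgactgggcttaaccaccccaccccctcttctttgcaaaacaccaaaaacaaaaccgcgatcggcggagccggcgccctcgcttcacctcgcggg
Kdr first match: agtgggggagtggGCGTGggaaaccgggaa
Kdr second match: tatccagtgggggGCGTGgccggacgcagg

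The Vegfa and Vegfc windows each held 2 GC boxes and 0 matches to the core. In Vegfa the GC boxes lay on the forward strand and began 72 and 62 bases before the start. In Vegfc both lay on the reverse strand and began 243 and 232 bases before it. The 250 bases before the Kdr start held 2 matches to the core, both with G as its first letter, which began 131 and 89 bases before the start, and 2 GC boxes. Vegfa has another listed start inside the gene, whose window held 1 match to each form of the core and 1 GC box and is not printed. Among 32851 windows of the same length, the core was present in either form in 38.6% and the GC box in 32.7%. No match counted here overlapped another. A match is a description of the letters only. No sequence beyond these 250 bases was searched, so 0 matches in a window does not mean that the gene lacks the core.

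The ligands went both ways between the genotypes. Angpt2 lay at 8.95 and 11.27 log2 units on hcatTg arrays 1 and 2, against 5.64 and 7.005 on wild type arrays 1 and 2. Both hcatTg arrays were above both wild type arrays, and within each genotype the second array was higher than the first. The mean level was 10.11 ± 1.64 in hcatTg cells and 6.32 ± 0.962 in wild type cells (SD, n = 2 each). The difference, hcatTg minus wild type, was 3.30 log2 units in the first pair and 4.26 in the second, or 9.86-fold and 19.2-fold higher, the largest of the 5 genes in both pairs.

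Vegfc lay at 4.53 and 5.70 log2 units on the hcatTg arrays, against 7.39 and 7.88 on the wild type arrays. Here too the genotypes did not overlap, with hcatTg on the lower side. The mean level was 5.11 ± 0.830 in hcatTg cells and 7.63 ± 0.342 in wild type cells (SD, n = 2 each). The difference was -2.87 in the first pair and -2.18 in the second, which correspond to levels 7.29-fold and 4.52-fold lower in hcatTg. Vegfc was the only one of the 5 genes whose difference was smaller in size in the second pair than in the first.

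Vegfa, the ligand of Kdr's product, had the smallest difference by mean over both pairs. Its level was 8.33 and 9.20 log2 units on the hcatTg arrays, against 9.18 and 10.31 on the wild type arrays. The genotypes overlapped by a small margin, since hcatTg array 2 lay just above wild type array 1, although hcatTg was lower within each pair. The mean level was 8.76 ± 0.613 in hcatTg cells and 9.74 ± 0.804 in wild type cells (SD, n = 2 each). The differences of -0.85 and -1.12 log2 units correspond to levels 1.80-fold and 2.17-fold lower in hcatTg. Leaving out 1 array moved the mean difference between -1.55 (without wild type replicate 1) and -0.41 (without wild type replicate 2). Those values break the pairing, so they also hold the change between the array pairs.

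The receptor gene Kdr lay at 6.68 and 8.24 log2 units on the hcatTg arrays, against 5.63 and 4.67 on the wild type arrays. The genotypes did not overlap, and the gap between them was far wider in the second pair. The mean level was 7.46 ± 1.10 in hcatTg cells and 5.15 ± 0.679 in wild type cells (SD, n = 2 each). The difference was 1.05 in the first pair and 3.57 in the second, or 2.07-fold and 11.8-fold higher. Both changes between arrays fed that gap: from first to second array, hcatTg gained 1.56 log2 units and wild type lost 0.96.

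The hypoxia factor gene Epas1 lay at 5.42 and 5.72 log2 units on the hcatTg arrays, against 6.59 and 7.35 on the wild type arrays. Both hcatTg arrays were below both wild type arrays, and the hcatTg arrays differed less from each other than for any other member. The mean level was 5.57 ± 0.214 in hcatTg cells and 6.97 ± 0.535 in wild type cells (SD, n = 2 each). The difference was -1.18 in the first pair and -1.63 in the second, which correspond to levels 2.26-fold and 3.10-fold lower in hcatTg. In bulk samples such as these, fewer cells that make a transcript and less transcript per cell cannot be told apart.

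**Figure D1:**
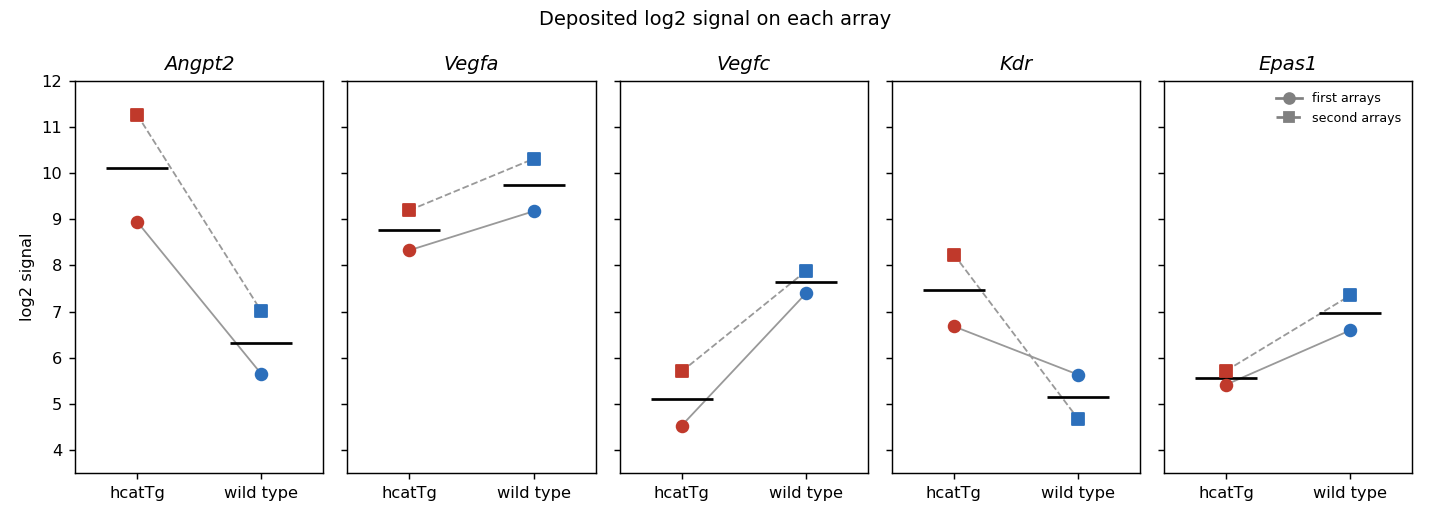
Each panel plots the deposited log2 signal (vertical axis) of 1 gene on the hcatTg arrays (left, red) and the wild type arrays (right, blue); circles are first arrays, squares second arrays, grey lines join the arrays of a pair and black bars are the means of 2 arrays. Angpt2 and Kdr lie higher in hcatTg, at means of 10.11 and 7.46 against 6.32 and 5.15 in wild type, while Vegfc and Epas1 lie lower without overlap and Vegfa lower with overlap.

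The 5 genes come from a table selected on these same genotype differences, since it holds only probe sets whose absolute fold was at least 2 at both times. The differences are therefore given as descriptions with no test. In the deposited value table, 4 of the 5 genes differed at least 2-fold in one direction in both pairs, Angpt2 and Kdr higher and Vegfc and Epas1 lower, where 0.377% and 1.18% of all clusters were higher and lower by that rule. Vegfa fell short in the first pair, as did 47 other probe sets of the authors' table. Its signed folds in the authors' deposited table were -2.32 (1st time) and -2.17 (2nd time), where a minus sign means wild type over hcatTg, which places it just inside their selection. Without overlap between the genotypes there were 2.53% of all clusters higher and 17.8% lower in hcatTg, against 2 and 2 of the 5 genes. In limma fits of the genotypes over all clusters (adjusted p below 0.05), 0.00844% of clusters were called on the deposited values, and a replicate block raised the share to 3.27%. No call is given for the 5 genes.

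**Figure D2:**
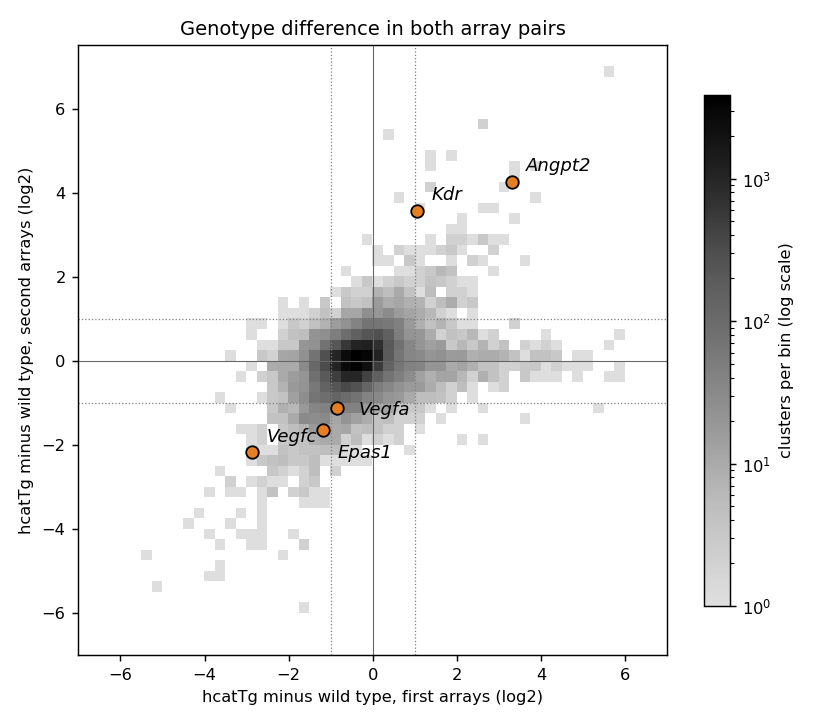
The horizontal axis is the difference hcatTg minus wild type in the first array pair and the vertical axis that in the second, both in log2 units; grey bins count all 35557 clusters on a log scale, orange points are the 5 genes and dotted lines mark 2-fold. Angpt2 lies at 3.30 and 4.26, Kdr at 1.05 and 3.57, and Vegfc at -2.87 and -2.18, outside the dense centre, while Vegfa at -0.85 and -1.12 lies near its edge.

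The 4 arrays differed in overall level. Their medians were 5.40 and 6.00 for hcatTg arrays 1 and 2, and 5.75 and 6.02 for wild type arrays 1 and 2. The median over all clusters of the difference within a pair, which need not equal the difference of the array medians, was -0.37 in the first pair and 0.01 in the second. Relative to the array medians, the first-pair difference became -0.50 for Vegfa, -0.83 for Epas1 and -2.52 for Vegfc, and 3.65 for Angpt2 and 1.40 for Kdr. In the second pair, centring moved no member by more than 0.02. No member changed direction in either pair under median centring or quantile normalization. Under both scalings the genotypes of Vegfa no longer overlapped: centred on the medians it lay at 2.93 and 3.19 in hcatTg, against 3.43 and 4.29 in wild type. Clusters that did not overlap after centring made up 11.5% higher and 10.8% lower of the whole array.

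The authors' deposited table carries its own log2 signals for the first pair, on another scale. For Vegfa that table gives 9.05 in hcatTg against 10.26 in wild type, a difference of -1.21 where the value table gives -0.85. Its first-time log2 ratio was 3.14 for Angpt2, 1.22 for Kdr, -2.95 for Vegfc and -1.40 for Epas1. That ratio minus the value table's first-pair difference was -0.16 for Angpt2, 0.17 for Kdr, -0.22 for Epas1, -0.09 for Vegfc and -0.37 for Vegfa. The second-time folds of that table equal the value table's differences to within 9e-05 on the log2 scale over all 398 probe sets. The size of the Vegfa difference in the first pair therefore ranged from -0.50 to -1.21 with the scaling, and that of Angpt2 from 3.14 to 3.80.

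**Figure D3:**
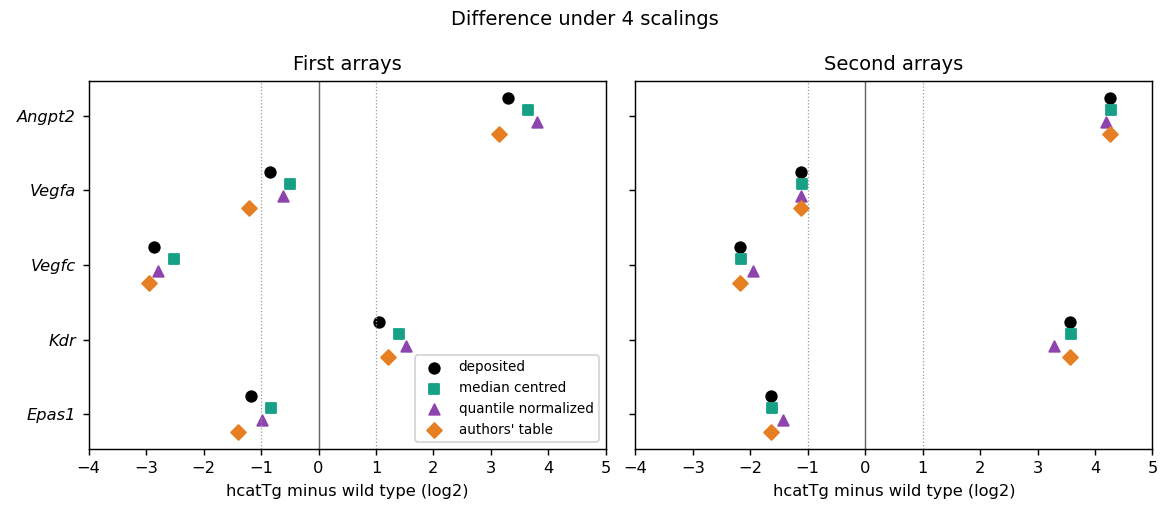
The horizontal axis is the log2 difference hcatTg minus wild type and each row is 1 gene, for the first arrays (left panel) and the second arrays (right panel); black circles are deposited values, green squares median-centred, purple triangles quantile-normalized and orange diamonds the authors' deposited table. The scalings spread most in the first pair, where Vegfa runs from -1.21 to -0.50, and all points of a gene keep its side of 0.

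The position of a gene among all clusters of an array does not depend on the array's scale, though it still depends on how well its probes hybridise. Angpt2 lay at percentiles 89.8 and 96.0 on the hcatTg arrays, against 47.9 and 61.8 on the wild type arrays. Kdr, which marks the endothelial lineage, lay at percentiles 67.5 and 74.9 in hcatTg and only at 47.7 and 25.9 in wild type. Vegfa stayed in the upper part of every array, at 85.3 and 84.4 in hcatTg and 90.0 and 92.2 in wild type. Vegfc lay at 32.3 and 45.4 in hcatTg against 72.9 and 70.8 in wild type. Epas1 lay at 50.3 and 45.7 in hcatTg against 63.1 and 65.2 in wild type. Background signal was not measured here, and the low levels of Vegfc in hcatTg and of Kdr in wild type are not shown to be above background.

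The change from first to second array was not used to choose the genes and was tested over all clusters with genotype in the fit (limma, Benjamini-Hochberg adjustment, adjusted p below 0.05). On the deposited values 27.2% of clusters passed as higher in the second pair and 0.416% as lower, and 3 of the 5 genes passed, all higher. Angpt2 was higher in the second pair by 1.84 ± 0.327 log2 units (SE, limma adjusted p = 6.53e-07), in both genotypes. Vegfa was higher by 1.00 (limma adjusted p = 0.0116) and Vegfc by 0.83 (limma adjusted p = 0.0426), again in both genotypes. Epas1 (0.53, limma adjusted p = 0.243) and Kdr (0.30, limma adjusted p = 0.573) did not pass. In this fit all clusters shared a single variance, so its p-values follow the size of the difference alone. The median shift of all clusters was 0.40, and after median centring Angpt2 was the member that passed (1.40 ± 0.210, SE, limma adjusted p = 0.0347), where 11.1% of clusters were called higher and 5.79% lower. After quantile normalization 0 clusters (0.0%) passed in limma, with 12588 at an unadjusted p below 0.05, and Angpt2 differed by 1.20 (limma adjusted p = 0.0689).

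On the deposited values Kdr differed from the other members in this respect. Its change from first to second array was 1.56 in hcatTg and -0.96 in wild type, while the other 4 genes were higher on the second array in both genotypes. Across all clusters these opposed directions were common, and their share is given under the flagged results. The genotype difference in the second pair exceeded that in the first by 2.52 log2 units for Kdr, which in size lies at percentile 99.5 of all clusters and eighth among the 398 probe sets of the authors' table. The same quantity was 0.96 for Angpt2, 0.69 for Vegfc, -0.27 for Vegfa and -0.45 for Epas1, beside a median size of 0.42 over all clusters. Both pair differences were used to choose the genes, so the percentile and the median over all clusters are given as descriptions only. With 1 array per genotype in each pair the inequality between the pairs has no replicate and was not tested. For Kdr, median centring gave 2.19 and quantile normalization 1.75, and its directions in the genotypes stayed opposed under both. Opposed directions were not particular to Kdr after rescaling. Epas1 changed by -0.30 in hcatTg and 0.48 in wild type after median centring, and by -0.27 and 0.19 after quantile normalization. Vegfa (-0.095 and 0.40) and Vegfc (0.65 and -0.19) were also opposed after quantile normalization, and Angpt2 was opposed under neither.

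**Figure D4:**
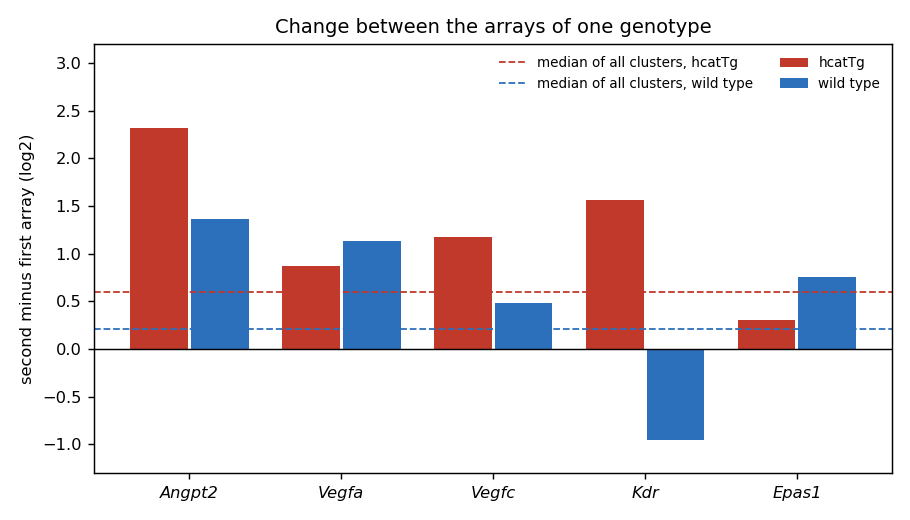
Bars give the second minus the first array of one genotype in log2 units for each gene (red hcatTg, left of blue wild type; 1 difference per bar, so no error), and dashed lines give the median of all clusters, 0.60 in hcatTg and 0.21 in wild type. Kdr is the gene whose bars point in opposite directions, at 1.56 in hcatTg and -0.96 in wild type.

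Names were available only through the authors' table, so further genes of the axis could be described only if they had been selected there, and the levels of all others were not analysed here. Of the listed 5 VEGF ligand genes 2 were named, of the 5 receptor and co-receptor genes 1, of the 6 angiopoietin and Tie genes 1, and of the 10 genes for hypoxia-inducible factor subunits and their regulators 1, all of them members. Of the 19 hypoxia-inducible factor target genes listed, Vegfa alone was named. That list did not include Angpt2 or Kdr, so it does not say whether they are targets. Of the 17 VEGF response and tip cell genes 2 were named, both lower in hcatTg without overlap. Jag1, a Notch ligand gene, lay at 5.92 and 7.04 in hcatTg against 7.71 and 9.11 in wild type, and Notch1, a Notch receptor gene, at 5.59 and 6.24 in hcatTg against 6.76 and 7.74 in wild type. These arrays themselves were used to select that table, so the counts carry no independent weight.

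The endothelial label could be checked only in part. Of the 18 endothelial markers 2 were named, Kdr and Eng, and they pointed in opposite directions. Eng, which encodes the TGF-beta co-receptor endoglin, lay at 8.40 and 8.71 in hcatTg and 9.57 and 10.15 in wild type. Pecam1 and Cdh5, which define the lineage, were not analysed here. Other markers moved along the genotypes as well, and their part in the 5 genes' differences was not tested. Summed on the linear scale, the 5 of 10 smooth muscle and mural markers named gave 397 and 1501 in hcatTg against 1331 and 4605 in wild type, and all 5 were lower within each pair. The 4 of 10 fibroblast and matrix markers gave 5279 and 13080 in hcatTg against 1196 and 3631 in wild type, with 2 higher and 2 lower. Thbs2, at 11.92 and 13.33 log2 units, made up most of that sum in hcatTg. The 4 of 9 mesothelial and epithelial markers (967 to 1378 in hcatTg, 1537 to 1914 in wild type) were 2 higher and 2 lower. The 3 of 8 leukocyte markers (342 to 668 in hcatTg, 188 to 422 in wild type) were 1 higher and 2 lower. The higher one, Cd53, at 8.25 and 9.27 log2 units, made up most of the leukocyte sum in hcatTg. Of 6 lymphatic markers 0 were named. The genotypes also differed in sex-linked genes: Xist was higher by 6.21 log2 units in hcatTg, and the 4 Y-linked genes listed differed by -2.47 to -5.34. Genotype and sex of the cells cannot be told apart.

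For each member, the 3 nearest of the other 397 probe sets in the authors' table were found by the Euclidean distance over the 4 arrays, after each probe set was centred on its own mean. These distances describe 4 arrays that split by genotype and array pair, and every probe set of that table was chosen for a genotype difference. The neighbours were picked for likeness on these same arrays. Shared patterns and distances below the median therefore follow from the choice and carry no weight. Nearest to Angpt2 were Pi15, a peptidase inhibitor family gene, Igfbp6, an insulin-like growth factor binding protein gene, and Thbs2, which encodes thrombospondin-2, an inhibitor of angiogenesis, at 0.28, 0.49 and 0.76 log2 units against a median distance of 5.29. Nearest to Kdr were Olr1, a receptor gene for oxidised low-density lipoprotein in endothelial cells, at 0.50, Vnn1, a pantetheinase gene, at 0.66, and Greb1, an estrogen-responsive gene, at 0.69, against a median of 3.98. By that choice, all 3 neighbours of Kdr shared its directions, lower on the second wild type array and higher on the second hcatTg array. Vegfa ran closest to Ablim1, an actin-binding protein gene, at 0.09, Rragb, a Rag GTPase gene, at 0.10, and Dnajb4, a chaperone gene, at 0.13. Vegfc ran closest to Gxylt2, a xylosyltransferase gene, at 0.26, Aass, a lysine breakdown gene, at 0.29, and Eya4, a transcriptional coactivator gene, at 0.38. Epas1 ran closest to Ksr1, a scaffold gene of the MAP kinase cascade, at 0.08, Ms4a4d at 0.15, and Eng at 0.16.

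Eng is an endothelial gene of the marker list, and its differences of -1.17 and -1.44 in the first and second pair stood beside -1.18 and -1.63 for Epas1. Ablim1 had differences of -0.97 and -1.11, beside -0.85 and -1.12 for Vegfa. The median distance over all other 397 probe sets was 1.09 from Vegfa, 1.09 from Epas1 and 1.45 from Vegfc.

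**Figure D5:**
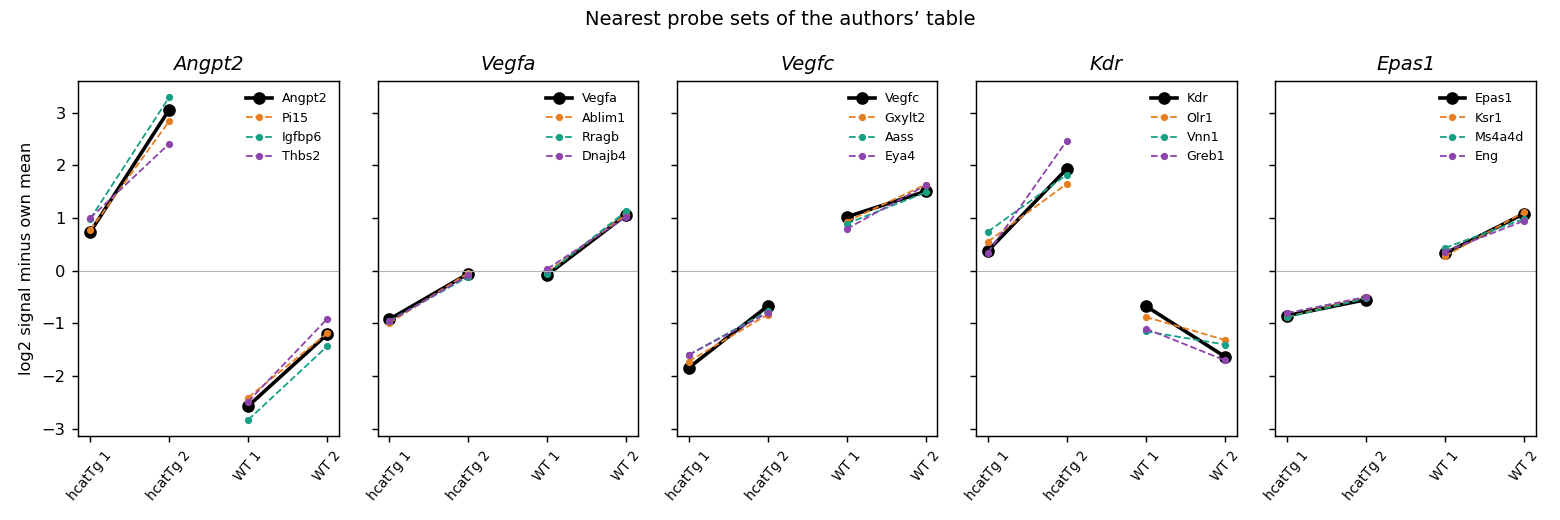
Each panel plots 1 gene (black) and its 3 nearest probe sets of the authors' deposited table (coloured, dashed) as log2 signal minus the probe set's own mean over 4 arrays, with hcatTg arrays 1 and 2 left of wild type (WT) arrays 1 and 2. The Kdr panel is the one in which the lines of the wild type arrays slope downward, and the distances range from 0.08 (Ksr1 to Epas1) to 0.76 (Thbs2 to Angpt2).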

How the data were processed

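Total RNA of 4 cell samples was hybridised to 4 arrays, and samples were grouped by the genotype label. The deposited value table holds log2 signals; the authors used Affymetrix Expression Console, per the submitters' processing notes. No source used here gives its version, the probe annotation or the build. The authors' table holds, per the file headers, log2 RMA signals (robust multi-array average) of the first pair, a linear ratio, and signed folds, a score in which a minus sign stands for wild type over hcatTg. Arrays have no read depth, and their number limits the precision.

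Gene names came from the authors' table. Through its accessions 385 of 398 were matched to RefSeq, 41 of them to another symbol. Differences are hcatTg minus wild type on the deposited values. limma (version 3.58.1, R 4.3.3; lmFit, eBayes, Benjamini-Hochberg over 35557 clusters, control rows included) called 3 clusters between the genotypes (0.00844%) and, with the replicate block, 1161 (3.27%). An exact test of 2 arrays against 2 cannot go below p = 0.333. The pairing follows the authors' headers for the first arrays and the match of their 2nd time folds for the second arrays. Over all clusters, arrays of the same pair deviated together from the means of their genotypes (Pearson's r = 0.690). The planned tests of further pathway genes could not be run, because such genes are named only where that table selected them. The fits were checked on simulated data.

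The genes named are the 5 members, the genes of 13 fixed lists that are in the table (at most 4 per list), and the 3 nearest probe sets of each member. Members and lists were chosen with earlier results of these data known.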

Additional observations from a re-analysis of the deposited data

Results flagged for a closer look

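Kdr stood out because its change from first to second array ran in opposite directions in the genotypes, at 1.56 log2 units in hcatTg and -0.96 in wild type, a difference of 2.52 that was not tested. A cluster lower on the second wild type array and higher on the second hcatTg array was found in 30.3% of all clusters on the deposited values, 11.2% after median centring and 12.8% after quantile normalization. Groups of 2 arrays are too small to look for single outlying arrays.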

How the results depend on the processing

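Under quantile normalization, median centring and the authors' deposited table, the mean differences of the 5 genes kept their direction and moved by less than the pooled replicate SD. The authors' table shares its second-pair differences with the value table, so only the first-pair part of its means could move. The pooled replicate SD also holds the change between the array pairs, which makes it a wide measure. With 2 arrays per genotype, leaving out 1 array cannot move a mean difference past that SD, and a balanced replicate block cannot move it at all, so those values describe the spread and say nothing about stability. Leaving out 1 array gave 2.62 to 4.94 log2 units for Angpt2, 1.53 to 3.09 for Kdr, -1.55 to -0.41 for Vegfa, -3.11 to -1.93 for Vegfc and -1.78 to -1.03 for Epas1. The authors' table gave 3.70, 2.39, -1.16, -2.56 and -1.52 for these genes in that order, and the replicate block left 3.78, 2.31, -0.98, -2.52 and -1.41. The count of 3 clusters called by limma between the genotypes depended on the setting, and the cause was not tested: quantile normalization, median centring, and the replicate block with quantile normalization gave 0 (1253, 975 and 4189 at an unadjusted p below 0.05), the replicate block 1161 and with median centring 24, an intensity trend 42 and a threshold of 0.1 gave 8. Leaving out the 6636 lowest-numbered clusters gave 52, and 1554 with median centring and the replicate block added. With 1 array left out the count ran between 0 and 192. It was 0 in limma when hcatTg replicate 1 or hcatTg replicate 2 was dropped (unadjusted p below 0.05 in 440 and 1340), 103 when wild type replicate 1 was dropped and 192 when wild type replicate 2 was. The 9820 clusters called between the array pairs became 5990 after median centring and 0 after quantile normalization (limma, 12588 at an unadjusted p below 0.05), and 9592 when the lowest-numbered clusters were dropped, which was chosen after seeing the data.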
